A study of Gasterosteus aculeatus with 60 samples.

Results

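The data described here are the telencephalon libraries of male threespined sticklebacks (Gasterosteus aculeatus) taken 60 minutes after a territorial challenge, chosen from the sample labels by region, time and treatment. They are 10 of the 60 libraries of the series: 5 from challenged males (fish 4, 7, 21, 28 and 36) and 5 from control males (fish 3, 8, 15, 27 and 35). All were wild-caught adult males of a single freshwater population, housed alone with a nest territory, and none carried a genetic manipulation. A challenged male met a smaller male confined in a flask, a control male met an empty flask, and the flask was taken out after 5 minutes. Each library was poly-A RNA of the telencephalon of 1 fish, and the diencephalon of the same fish gave a library of its own. Other males were used at 30 and at 120 minutes, so the times share no fish. The fish are separate animals, so that the spread within a group is that between individuals. Per the study's methods a control male was handled together with each challenged male, but the labels do not name these partners, and none of the tests used them.

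The telencephalon is the forebrain region whose pallial and subpallial areas belong, in fishes, to the network of brain areas that governs social behavior. An encounter with a rival commonly induces immediate early genes such as egr1 and fos in active neurons, followed by slower changes in neuropeptide signalling, synaptic genes and metabolism. Photoreceptor genes encode the light-sensing cascade of rods and cones, inflammatory mediators are made by activated microglia and leukocytes, and contractile genes mark muscle. A brain piece is a mixture of cells, so fewer cells of a type and less RNA per cell cannot be told apart in the values given here.

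Library totals on genes lay between 17705327 and 37131446 counts, and replicates of a group differed by far more than counting error (chi-square per gene of at least 18.8 for every pair). Levels are given in cpm, counts scaled to the size of a library, after TMM scaling, which corrects for the size of a library and not for the length of a gene, so levels are compared between fish and not between genes. As a check of the region, 21 genes listed for the telencephalon, though not particular to it (emx, tbr1, eomes, dlx and gad genes among them), summed to 2024 to 2491 cpm in the 10 fish. In the diencephalon of the same fish they summed to 1296 to 1640 cpm, so this list set the regions apart less than the next. The 17 genes of a list for hypothalamus and thalamus summed to 30.9 to 50.7 cpm, against 256 to 348 cpm in the diencephalon of the same fish. Of the 9 pituitary genes, 0 passed the filter on low values, and they summed to at most 5.55 cpm. Control fish 8 lay farthest from the other fish of its group over all genes, with a root mean square difference of 0.649 in log2 cpm. Control fish 35 followed closely at 0.646, and the other 8 fish lay between 0.441 and 0.525. Results that rest on fish 8, on fish 35, or on challenged fish 36, which stood apart for muscle genes, are given with and without them.

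The question was which genes differed between challenged and control males at this time. Of the 17247 genes tested, 0 passed an adjusted p of 0.1 in the edgeR quasi-likelihood test (0% called), and the smallest adjusted p was 0.444. Without adjustment, 2127 genes (12.3% of those tested) had a p under 0.05, of which 1227 were higher in challenged fish (7.11%) and 900 lower (5.22%). A likelihood ratio test called 15 genes, all lower in challenged fish, and DESeq2 called 232, of which 101 were higher. Control fish 35 had the highest value of the 10 fish for 12 of the 15 genes and for 108 of the 232, and in 97 of those 108 its value was over 3 times that of the next fish. Challenged fish 28 had the highest value for 52 of the 232, but in 0 of those 52 was it over 3 times that of the next fish. With fish 8, 35 and 36 left out, the likelihood ratio test called 2 genes and DESeq2 called 4, all of them also called with every fish. This omission also leaves fewer fish in each group, and the part of that in the lower counts was not tested. DESeq2 called ESYT2 (1 of 2), tango2, MSRB1 (2 of 2) and MYT1L (2 of 2), and the likelihood ratio test called ESYT2 (1 of 2) and tango2. The quasi-likelihood test called 0 genes without the 3 fish, with 1209 at an unadjusted p under 0.05 and a smallest adjusted p of 0.446.

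**Figure D1:**
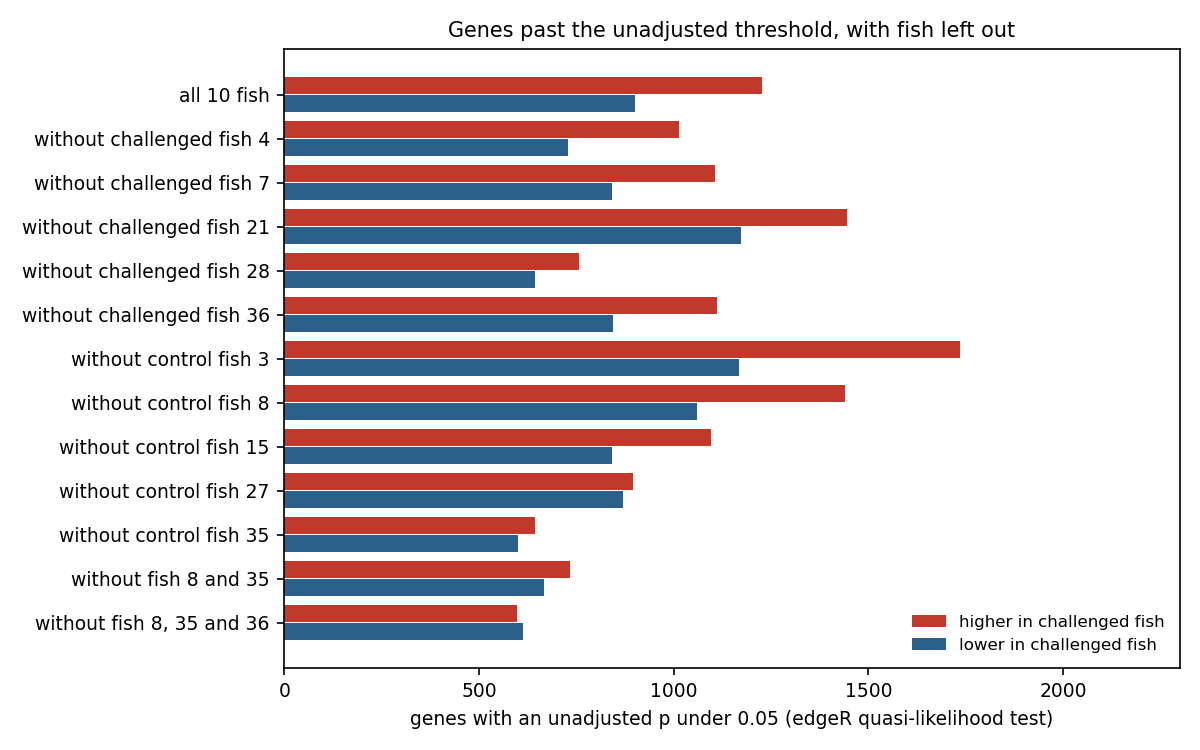
Number of genes with an unadjusted p under 0.05 in the edgeR quasi-likelihood test, split into genes higher and genes lower in challenged fish. Bars are given with all 10 fish, with each fish left out, and with fish 8 and 35 or fish 8, 35 and 36 left out together. The total ran from 1245 genes without control fish 35 to 2903 without control fish 3 and was 1209 without fish 8, 35 and 36.

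Single genes that set the groups apart in nearly every fish are described first. None of them passed the adjusted threshold in the quasi-likelihood test, so their directions describe these 10 fish. Values are given for challenged fish 4, 7, 21, 28 and 36 and then for control fish 3, 8, 15, 27 and 35, always in that order. The smallest p that an exact permutation test (two-sided, 5 against 5 fish) can give is 0.00794. Every gene whose groups do not overlap has that p, which then adds nothing to the separation. It is also the expected share of genes that would separate in either direction if the group labels carried no information. In 128 genes every challenged fish was above every control fish (0.742% of genes tested), and in 99 every challenged fish was below every control fish (0.574%).

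ESYT2 (1 of 2), an extended synaptotagmin of the kind that ties the endoplasmic reticulum to the plasma membrane, had the smallest p of all genes. Its values were 31.7, 33.9, 37.6, 31.2 and 36.5 cpm in challenged and 49.7, 40.0, 43.6, 57.3 and 50.0 cpm in control fish. The groups did not overlap, at 34.2 ± 2.86 and 48.1 ± 6.66 cpm (SD, n = 5 each). The log2 fold change was -0.49 (standard error, SE, 0.10, adjusted p = 0.444 by the edgeR quasi-likelihood test). It lay between -0.56 and -0.42 whichever single fish was left out. The gene lies on chromosome XXI from 9244795 to 9263251 (annotation of Ensembl release 75). In the other groups its log2 fold change was -0.10 at 30 minutes, 0.014 at 120 minutes and -0.15 in the diencephalon at 60 minutes.

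tango2, whose human counterpart is mutated in a disorder with metabolic crises, was lower in challenged fish. It stood at 16.7, 15.6, 23.1, 15.8 and 18.0 cpm in challenged and at 32.7, 28.9, 34.3, 31.6 and 20.9 cpm in control fish. Control fish 35 lay below challenged fish 21, and the groups were otherwise separate. Its fitted log2 fold change was -0.74 (SE 0.17, exact permutation p = 0.0159, adjusted p = 0.534 by the edgeR test), and -0.89 without fish 8, 35 and 36. In the diencephalon of the same fish it was -0.52, again with control fish 35, at 20.6 cpm, within the range of the challenged fish.

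MSRB1 (2 of 2), a methionine sulfoxide reductase that repairs oxidised proteins, had 9.03, 7.68, 7.85, 8.66 and 7.84 cpm in challenged and 12.8, 10.7, 14.5, 17.8 and 10.6 cpm in control fish. All challenged fish were below all control fish, and they were closer to each other than the control fish were. This gave a log2 fold change of -0.69 (SE 0.16, exact permutation p = 0.00794, adjusted p = 0.534 by the edgeR test), which lay between -0.77 and -0.57 with any fish left out. In the diencephalon it was -0.50, and at 30 and 120 minutes it was 0.20 and 0.021.

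gpha2, the alpha subunit of the glycoprotein hormone thyrostimulin, was measured at low levels. Challenged fish had 0.627, 0.746, 1.22, 0.740 and 0.909 cpm and control fish 2.56, 2.61, 1.39, 2.00 and 1.49 cpm. The groups did not overlap, and the log2 fold change was -1.24 (SE 0.30, exact permutation p = 0.00794). In the diencephalon, where control fish 35 was within the range of the challenged fish, it was -1.04.

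fndc5b, a membrane protein with a fibronectin domain, had the smallest p of the named genes that were higher in challenged fish. It was at 12.3, 8.90, 9.64, 11.5 and 9.88 cpm in challenged and at 8.58, 8.14, 7.29, 7.52 and 6.19 cpm in control fish. The groups did not overlap, with challenged fish 7 and control fish 3 closest. The fitted difference was a log2 fold change of 0.47 (SE 0.10, adjusted p = 0.534 by the edgeR quasi-likelihood test), against -0.069 at 30 minutes, 0.050 at 120 minutes and 0.16 in the diencephalon.

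MYT1L (2 of 2), a zinc finger factor that in mammals represses non-neuronal genes in neurons, was at 64.0, 61.1, 59.9, 73.3 and 58.1 cpm in challenged and at 51.3, 57.7, 47.9, 46.2 and 47.5 cpm in control fish. The groups did not overlap, with challenged fish 36 and control fish 8 closest. The log2 fold change was 0.34 (SE 0.080, exact permutation p = 0.00794, adjusted p = 0.534 by the edgeR test), and 0.41 without fish 8, 35 and 36. NCOA3 (2 of 2), a coactivator of nuclear receptors, was at 51.5, 48.2, 45.4, 58.0 and 46.9 cpm in challenged and at 41.7, 42.0, 42.7, 38.8 and 36.9 cpm in control fish. Its groups did not overlap either, at a log2 fold change of 0.31 (SE 0.072).

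ccdc88aa, of the girdin family of actin-binding proteins, was more variable. Challenged fish had 168, 255, 152, 225 and 164 cpm and control fish 151, 125, 136, 105 and 109 cpm. Challenged fish 21 was just above control fish 3, and the log2 fold change was 0.62 (SE 0.15). Further genes of small p that were higher in challenged fish were ZNF821, a zinc finger protein (log2 fold change 0.31), mafga, a small Maf transcription factor (0.50), SH3RF3, a ubiquitin ligase with SH3 domains (0.35), skila, a corepressor in TGF-beta signalling (0.45), and igsf9b (2 of 3), a synaptic adhesion molecule (0.98). Their groups did not overlap. camsap1b, which binds the ends of microtubules, had 0.21, with control fish 3 and 8 above challenged fish 21.

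**Figure D2:**
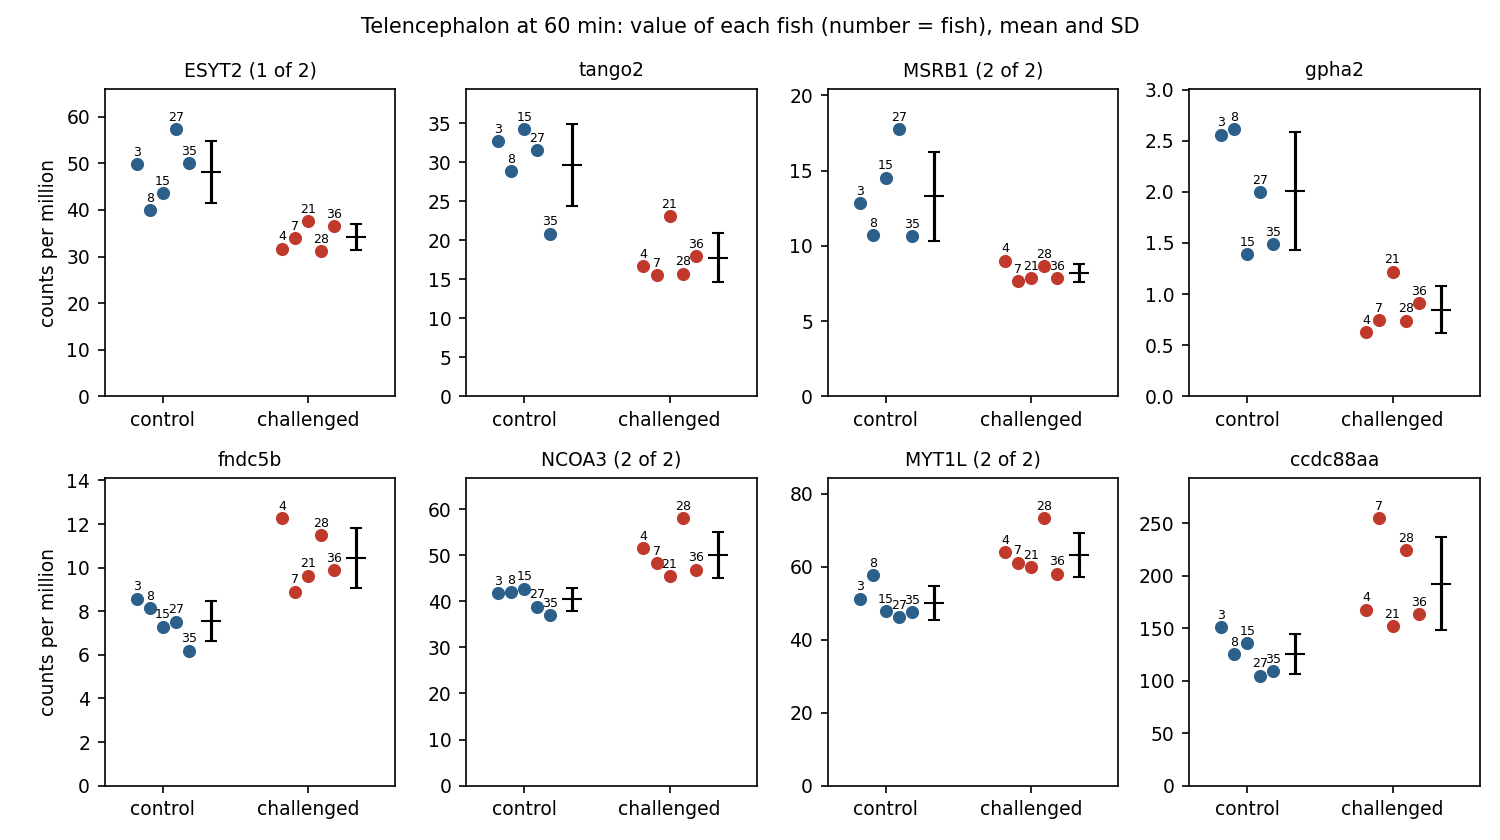
Level (cpm, from 0) of 8 genes in each of the 10 telencephalon libraries at 60 minutes, with fish numbers beside the points and the mean and SD of 5 fish per group. For ESYT2 (1 of 2) the highest challenged fish was at 37.6 cpm and the lowest control fish at 40.0 cpm, and for tango2 control fish 35 (20.9 cpm) was below challenged fish 21 (23.1 cpm).

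Larger fold changes with separate groups were found among genes of lower or more variable level. slc16a6a, a monocarboxylate transporter that in zebrafish exports ketone bodies from the liver, was at 63.9, 47.8, 35.4, 17.9 and 47.4 cpm in challenged and at 121, 91.7, 207, 78.8 and 129 cpm in control fish. Every control fish was above every challenged fish, at a log2 fold change of -1.56 (SE 0.61). Its exact permutation p of 0.00794 follows from that separation, by which the gene was chosen. cybb, the catalytic subunit of the phagocyte NADPH oxidase, was at 14.7, 24.6, 10.6, 13.4 and 13.6 cpm in challenged and at 32.8, 148, 26.9, 25.8 and 29.6 cpm in control fish. These groups were separate too, but the log2 fold change of -1.77 was -0.90 without control fish 8. Others with separate groups were twist1a, a mesenchymal transcription factor (log2 fold change -1.14), lygl1, a lysozyme (-1.68), igf2bp1, an RNA-binding protein (1.04), and suv420h2, a histone methyltransferase (0.74).

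The lists that follow group genes by function and hold only genes that the study's supplementary tables name, since those alone pair names with identifiers. Most members were tabled by the study, that is, called differentially expressed by it from libraries of this series. A list's count is therefore not independent evidence of its direction. For this very comparison the study tabled 28 of 37 phototransduction genes, 22 of 28 inflammatory mediators, 26 of 28 synaptic genes and 14 of 26 muscle genes tested. Of the members never tabled, 0 had a p under 0.05 in any list. Each count is of genes with an unadjusted p under 0.05 in the quasi-likelihood test. With all fish it is given beside the 7.11% higher and 5.22% lower among all genes, whose median log2 fold change was -0.015. Those shares are no baseline for members already called from these data. Without fish 35, 645 of all 17209 genes were higher and 600 lower. Without fish 8, 35 and 36 these were 597 and 612 of 17170. They were 1440 and 1061 of 17223 without fish 8, and 1112 and 845 of 17237 without fish 36. With the library index they were 1258 and 964 of 17247. With another single fish left out, 8.14% to 16.8% of genes passed in either direction.

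Photoreceptor genes gave the largest differences of the lists, and these rested on control fish 35. Of 37 phototransduction genes tested (of 43 listed, 37 tabled by the study), 36 were lower in challenged fish at p under 0.05 and 0 higher, at a median log2 fold change of -4.43. The list summed to 18.4, 61.3, 30.3, 65.0 and 59.2 cpm in challenged and to 42.7, 142, 171, 58.4 and 1808 cpm in control fish. Fish 35 was more than 10 times every other fish, and control fish 3 and 27 lay within the range of the challenged fish. Without fish 35, 12 of the 33 genes that still passed the filter were lower and 0 higher, at a median of -1.65. Without fish 8, 35 and 36 there were 4 lower of 32, at a median of -1.62. With the library index (the barcode group of a library) as a term in the model, 19 of 37 were lower, at a median of -2.63. Among the 10 libraries, fish 15, 21, 35 and 36 were each alone in their index group. The index terms were fitted over all 30 telencephalon libraries, and how far they separate index from fish was not tested. Under a stricter filter, which asks for 1 cpm in at least 25 of the 30 telencephalon libraries, 3 genes remained, at a median of -0.92, and the other members fell short of 1 cpm in more than 5 libraries. In the diencephalon the same genes summed to 3940 cpm in fish 35 and to 37.1 to 241 cpm in the other 9 fish, and in the 20 telencephalon libraries of the other times to 30.4 to 256 cpm.

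gnat1, the alpha subunit of rod transducin (chromosome XVII from 14591379 to 14594859), was at 0.820, 2.08, 0.330, 0.894 and 0.909 cpm in challenged and at 1.12, 6.05, 13.0, 0.213 and 195 cpm in control fish. The groups overlapped, since control fish 27 had the lowest value of all. This gave a log2 fold change of -5.39 (SE 1.39, exact permutation p = 0.159), and -2.31 without fish 35. In the diencephalon gnat1 was at 443 cpm in fish 35, at 26.6 cpm in fish 15 and at 1.14 to 6.35 cpm in the rest.

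gnat2, the cone counterpart of gnat1, was at 0.917, 2.37, 0.627, 0.894 and 2.56 cpm in challenged and at 1.05, 6.46, 8.58, 0.892 and 101 cpm in control fish. As for gnat1, control fish 35 was highest, followed by 15 and 8. Other phototransduction genes had log2 fold changes with and without fish 35 of -4.32 and -2.55 (arr3a, a cone arrestin), -4.52 and -1.65 (pde6a, a rod phosphodiesterase subunit), -4.58 and -0.30 (pde6h (1 of 2), a cone phosphodiesterase subunit), -4.53 and -1.75 (gngt1, a rod transducin gamma subunit), and -4.13 and -1.69 (grk1a (1 of 2), a rhodopsin kinase). All of these were highest in fish 35.

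cnga3a, a subunit of the cone cyclic nucleotide-gated channel, had another pattern. It was at 4.87, 20.4, 17.1, 19.4 and 22.0 cpm in challenged and at 20.1, 50.0, 29.9, 44.3 and 33.2 cpm in control fish. Control fish 8 was highest and challenged fish 4 lowest, and only control fish 3 lay within the challenged range. The fitted difference was a log2 fold change of -1.08 (SE 0.35), and -1.10 without fish 35.

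Of 23 genes of the photoreceptor outer segment and of retinal transcription factors tested (of 33 listed, 23 tabled by the study), 21 were lower at p under 0.05 and 0 higher, at a median of -2.58. Without fish 35, 3 of 21 were lower, at a median of -0.85, and with the library index 13 of 23 were, at -1.72. rom1b, a protein of the rim of photoreceptor discs, was at 0, 0.453, 0.0330, 0.216 and 0.227 cpm in challenged and at 0.108, 2.31, 3.32, 0 and 63.0 cpm in control fish. It was at 0 in challenged fish 4 and in control fish 27, and its log2 fold change was -6.10, and -2.85 without fish 35. crx, the transcription factor of photoreceptor identity, was at 0.531, 0.746, 0.363, 0.524 and 0.625 cpm in challenged and at 0.901, 0.880, 2.08, 0.213 and 12.7 cpm in control fish. For crx the log2 fold change was -2.58, and -0.85 without fish 35. The same pairs of values were -5.04 and -2.13 for rom1a, -4.79 and -1.87 for clul1, a clusterin-like gene, -1.50 and -0.60 for abca4b, a retinoid transporter, and -3.15 and -0.55 for cabp5a, a calcium-binding protein of retinal neurons.

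Genes of the visual cycle, eye pigment and lens were lower in 15 of 19 at p under 0.05 and higher in 0 (all tabled by the study), at a median of -2.13. Without fish 35, 6 were lower, at a median of -0.86, and without fish 8, 35 and 36, 9 were, at -1.63. The count was also 7 without challenged fish 7, 8 without challenged fish 28, 9 without challenged fish 21 and 4 with the library index (median -1.19). rpe65c, a retinoid isomerase, did not rest on fish 35: it was at 76.6, 109, 100, 78.3 and 103 cpm in challenged and at 126, 94.7, 112, 217 and 133 cpm in control fish. Control fish 27 was highest and control fish 8 lay within the challenged range, with a log2 fold change of -0.55, which was -0.56 without fish 35 and -0.32 without fish 27. rbp4l, a retinol-binding protein, was at 183 cpm in fish 35 and at 0.231 to 20.6 cpm in the other fish. The 4 lens crystallins of the list were instead highest in control fish 15, at 6.002 to 13.9 cpm against at most 0.965 cpm in any other fish. The part of these genes in the photoreceptor result was not tested.

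**Figure D3:**
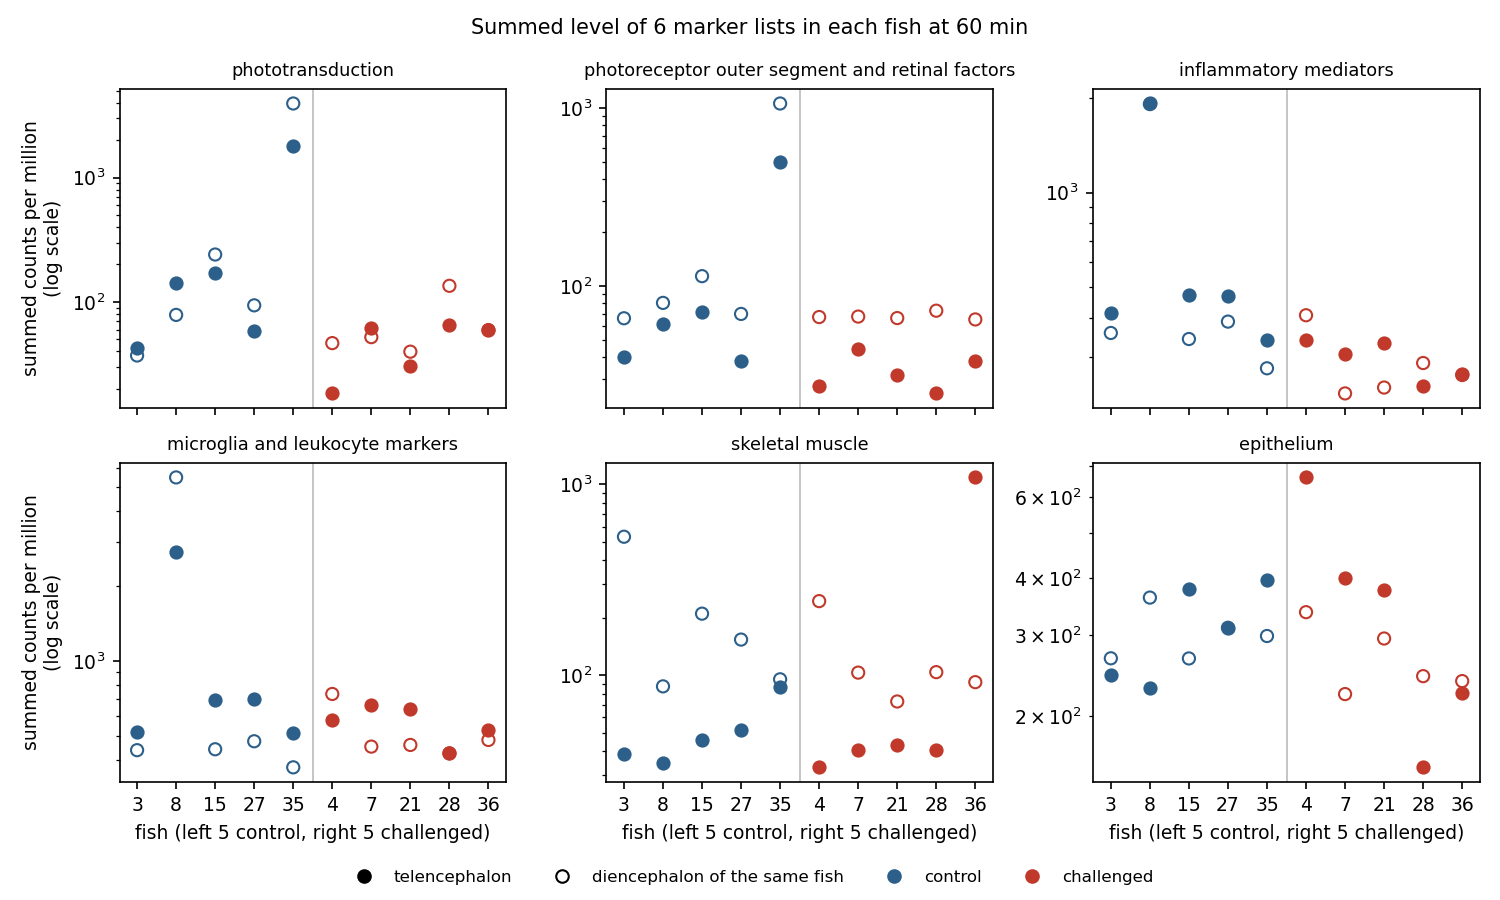
Summed level of 6 gene lists (cpm, log scale) in each of the 10 fish, in telencephalon (filled) and in diencephalon (open). Control fish 35 stood at 1808 cpm for phototransduction, control fish 8 at 1922 cpm for inflammatory mediators and challenged fish 36 at 1088 cpm for skeletal muscle in the telencephalon.

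Inflammatory genes differed most through control fish 8. Of 28 mediators tested (all tabled by the study), 22 were lower in challenged fish at p under 0.05 and 0 higher, at a median log2 fold change of -1.83. Summed over the list, levels were 340, 306, 332, 243 and 266 cpm in challenged and 413, 1922, 473, 469 and 340 cpm in control fish. Fish 8 was about 4 times the next fish. Every control sum was above every challenged sum, but challenged fish 4 (340.144 cpm) and control fish 35 (340.264 cpm) were nearly equal. Without fish 8, 4 of 26 were lower and 1 higher at p under 0.05, at a median of -0.25. With the library index 12 of 28 were lower, at a median of -0.87. In the diencephalon the list summed to 1914 cpm in fish 8 and to 230 to 407 cpm in the other 9 fish. The 20 telencephalon libraries at 30 and 120 minutes ran from 243 to 1436 cpm.

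irg1, which makes the antimicrobial metabolite itaconate in activated macrophages (chromosome XVI from 2495273 to 2497944), was at 2.56, 2.19, 1.75, 0.617 and 1.53 cpm in challenged and at 0.901, 435, 1.54, 2.21 and 1.66 cpm in control fish. Apart from fish 8, the groups shared the same range. The log2 fold change was -5.69 (SE 1.59, exact permutation p = 0.563), and 0.13 without fish 8. il1b, the cytokine interleukin-1 beta, was at 51.5 cpm in fish 8 and at 0.145 to 0.425 cpm in the other 9 fish, and without fish 8 it did not pass the filter on low values. In the diencephalon of fish 8 irg1 was at 276 cpm and il1b at 24.07 cpm.

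cebpb and irf8, transcription factors of myeloid cells, had log2 fold changes of -1.83 and -1.56 with fish 8, and of -0.26 and 0.0025 without it. Without fish 8, the value went from -0.83 to -0.25 for C4B, a complement component, and from -0.68 to -0.21 for nfkbiaa, an inhibitor of NF-kappa-B. In cd40, a co-stimulatory receptor, the groups were separate, with 20.6 to 36.8 cpm in challenged and 37.1 to 125 cpm in control fish, and the log2 fold change went from -0.99 to -0.52. stat1a, a mediator of interferon signalling, was at 83.7, 90.8, 84.5, 66.7 and 72.8 cpm in challenged and at 120, 119, 92.5, 98.5 and 123 cpm in control fish. All control fish were above all challenged fish, at a log2 fold change of -0.47 (-0.45 without fish 8), at an exact permutation p of 0.00794 and an adjusted p of 0.764 by the edgeR test.

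Of 33 microglia and leukocyte markers (30 tabled by the study), 12 were lower at p under 0.05 and 0 higher, at a median of -0.84, and 1 was lower without fish 8, at a median of -0.11. It was 3 with the library index (median -0.56), 4 without challenged fish 28 and 6 without challenged fish 4 or 36. The list summed to 425 to 663 cpm in challenged fish, 2734 cpm in fish 8 and 512 to 699 cpm in the other control fish. csf1rb, a receptor of macrophages and microglia, was at 55.0, 73.0, 76.6, 45.7 and 69.8 cpm in challenged and at 59.7, 218, 80.0, 85.9 and 55.5 cpm in control fish. itgb2, an integrin of leukocytes, was at 235 cpm in fish 8 and at 41.3 to 68.5 cpm elsewhere. CTSS (2 of 2), a lysosomal protease, was at 229 cpm in fish 8 and at 26.2 to 58.6 cpm elsewhere. The part of these markers in the inflammatory result was not tested.

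Muscle genes differed through challenged fish 36. Of 26 tested (of 28 listed, 26 tabled by the study), 14 were higher in challenged fish at p under 0.05 and 1 lower, at a median of 1.89. The sum over its members was 32.9, 40.6, 43.0, 40.4 and 1088 cpm in challenged and 38.7, 34.7, 45.6, 51.5 and 86.2 cpm in control fish. Fish 36 apart, no fish exceeded control fish 35. Without fish 36, 0 of 24 were higher and 3 lower at p under 0.05, at a median of -0.34. With the library index and all fish, 0 of 26 were higher and 1 lower, at a median of 0.19. Fish 36 was alone in its index group among the 10 libraries. In the diencephalon fish 36 was at 91.9 cpm, within 72.8 to 532 cpm over the 10 fish, so that it stood apart in its telencephalon library alone.

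ckma, the creatine kinase of skeletal muscle, was at 0.193, 0.293, 1.65, 0.894 and 112 cpm in challenged and at 0.937, 0.110, 0.794, 0.552 and 2.09 cpm in control fish. Its fitted log2 fold change was 4.67 (SE 1.45, exact permutation p = 0.611), and -0.24 without fish 36. Without fish 36, the log2 fold change went from 4.99 to -0.58 for atp2a1l and from 2.85 to -0.58 for atp2a1, calcium pumps of the sarcoplasmic reticulum, from 4.36 to -0.74 for ckmb and from 1.71 to -0.54 for tpm2, a tropomyosin.

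Synaptic genes were higher in challenged fish by small amounts. Of 28 genes of synaptic scaffold, adhesion and release (all tabled by the study), 26 were higher at p under 0.05 and 0 lower, at a median log2 fold change of 0.34. The list summed to 5861, 5517, 4746, 6361 and 5421 cpm in challenged and to 5359, 4891, 4530, 4099 and 3165 cpm in control fish. Control fish 35 was lowest, followed by 27 and 15, and the groups overlapped, since challenged fish 21 was below control fish 3 and 8. Without fish 35, 18 had a p under 0.05, at a median of 0.25, and without fish 8, 35 and 36, 14 did, at 0.26. The 20 telencephalon libraries of the other times ran from 4527 to 5746 cpm. Control fish 35 and 27 lay below that range and challenged fish 4 and 28 above it.

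nrxn1a, a presynaptic adhesion molecule, was at 935, 770, 632, 917 and 810 cpm in challenged and at 779, 740, 640, 584 and 474 cpm in control fish. This gave a log2 fold change of 0.34 (SE 0.11, adjusted p = 0.549 by the edgeR test), which lay between 0.25 and 0.42 with any fish left out. syt1a, the calcium sensor of transmitter release, was at 502, 432, 408, 534 and 455 cpm in challenged and at 416, 427, 405, 348 and 277 cpm in control fish, for a log2 fold change of 0.32. In both genes control fish 35 was lowest and challenged fish 21 lay within the range of the control fish. SYN2 (2 of 2), a synapsin of synaptic vesicles, had a log2 fold change of 0.25.

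Of 21 neurotransmitter receptor genes (all tabled by the study), 17 were higher at p under 0.05 and 0 lower, at a median of 0.35, and 13 were higher without fish 35, at 0.27. Summed over the list, levels were 4696, 4284, 3627, 4713 and 4483 cpm in challenged and 4197, 3938, 3422, 3412 and 2863 cpm in control fish. Without fish 8, 35 and 36, 8 were higher, at 0.27. grin1a, the obligatory subunit of NMDA receptors, was at 2496, 2307, 1872, 2402 and 2413 cpm in challenged and at 2217, 2167, 1875, 1895 and 1692 cpm in control fish. Challenged fish 21 lay among the control fish, and the log2 fold change was 0.22 (SE 0.10), and 0.17 without fish 35, where it no longer had a p under 0.05. GRIN2B (1 of 2) and grin2bb, NMDA receptor subunits that shape the kinetics of the channel, had 0.54 and 0.35, while gabbr1b, a GABA-B receptor subunit, had 0.082 and did not pass p under 0.05.

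Channels and pumps of neurons were higher in 12 of 17 and lower in 1 at p under 0.05 (all tabled by the study), at a median of 0.33. Without fish 35, 5 were higher and 1 lower, at 0.23. atp1a3a, the neuronal sodium pump, was at 925, 818, 780, 887 and 779 cpm in challenged and at 734, 770, 683, 682 and 729 cpm in control fish. All challenged fish were above all control fish, at a log2 fold change of 0.22 (SE 0.067), and 0.23 without fish 35. slc12a5a, the chloride exporter of neurons, and ryr2a, a calcium release channel, had 0.43 and 0.42, with overlapping groups. Without fish 35 they had 0.30 and 0.25, and ryr2a no longer had a p under 0.05.

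Genes of energy metabolism lay the other way. Of 32 tested (all tabled by the study), 19 were lower in challenged fish at p under 0.05 and 1 higher, at a median of -0.39. The sum over its members was 1260, 1308, 1323, 1162 and 1311 cpm in challenged and 1452, 1311, 1637, 1611 and 1665 cpm in control fish. Control fish 8 lay among the challenged fish, and the other control fish lay above them. Without fish 35, 15 of 31 were lower and 2 higher, at -0.35, and without fish 8, 35 and 36, 12 were lower and 0 higher, at -0.40. mut, the mitochondrial methylmalonyl-CoA mutase, was at 82.7, 77.7, 72.9, 81.1 and 88.6 cpm in challenged and at 91.3, 88.9, 96.5, 98.0 and 92.2 cpm in control fish. Its groups did not overlap, at a log2 fold change of -0.21 (SE 0.062). gstk1, a glutathione transferase of mitochondria and peroxisomes, had -0.36. ndufa4, of the respiratory chain, had 0.20, and acsl1a, which activates fatty acids, had -0.085, and neither passed p under 0.05.

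**Figure D4:**
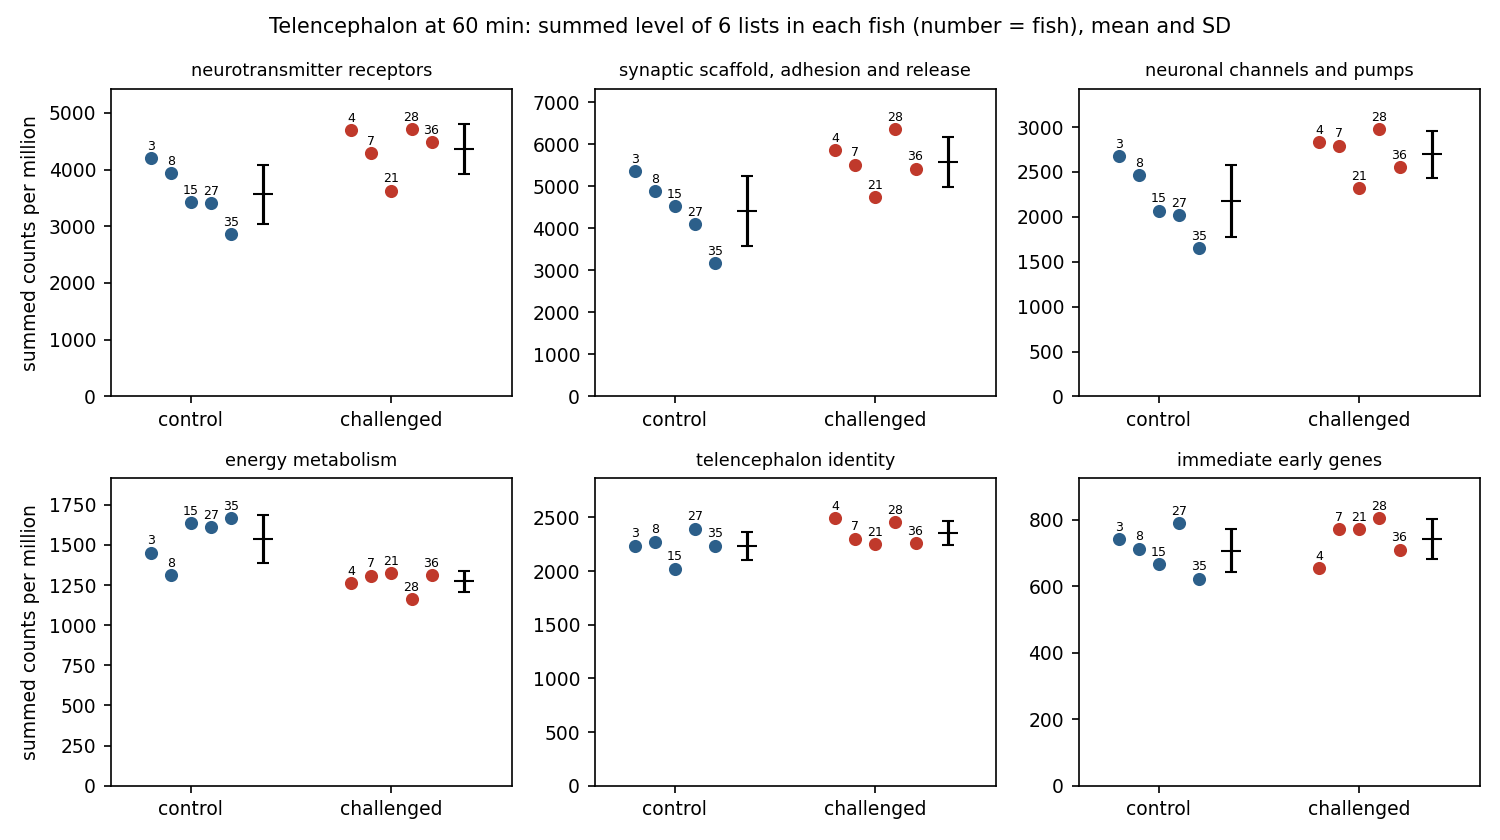
Summed level (cpm, from 0) of 6 gene lists in each telencephalon library at 60 minutes, with fish numbers beside the points and the mean and SD of 5 fish per group. The synaptic list ran from 3165 cpm in control fish 35 to 6361 cpm in challenged fish 28, and the list for the telencephalon from 2024 to 2491 cpm.

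Some other values moved with the neuronal lists across the control fish. Control fish 35, 27 and 15, which had the lowest synaptic sums, had the highest sums of energy metabolism (1665, 1611 and 1637 cpm) and of visual cycle, eye pigment and lens genes (532, 244 and 251.8 cpm, against 97.8 to 164 cpm in the other 7 fish). Single genes weighed heavily in the latter sum: rpe65c, given above, was most of it in fish 27, and rbp4l was 183 cpm of it in fish 35. Genes listed for the telencephalon did not have that order, at 2237, 2396 and 2024 cpm. Nor did phototransduction genes, at 1808, 58.4 and 171 cpm against 142 cpm in control fish 8. Genes of the photoreceptor outer segment and retinal factors did not either, at 500, 37.9 and 71.1 cpm against 61.5 cpm in fish 8. Among the control fish, the list for hypothalamus and thalamus was also highest in fish 35, 27 and 15. It summed there to 50.7, 42.3 and 50.4 cpm, against 36.5 cpm in fish 3 and 30.9 cpm in fish 8. Challenged fish 7, at 44.6 cpm, lay above fish 27. The part of tissue carried along with the telencephalon in the synaptic and metabolic values was not tested.

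Immediate early genes did not separate the groups at this time. Of 22 tested (9 tabled by the study for some comparison), 0 had a p under 0.05 in the quasi-likelihood test, the likelihood ratio test or DESeq2, and the median log2 fold change was -0.022. egr1 was at 81.0, 148, 141, 146 and 137 cpm in challenged and at 124, 122, 110, 131 and 123 cpm in control fish. Challenged fish 4 was lowest, and the other 4 challenged fish were above all control fish. The fitted difference was a log2 fold change of 0.10 (SE 0.12, adjusted p = 0.948 by the edgeR test), against 0.25 at 30 minutes. Without challenged fish 4 it was 0.23, at a p under 0.05. fosb was at 28.9, 30.2, 27.1, 17.9 and 20.1 cpm in challenged and at 31.4, 16.0, 21.5, 24.7 and 12.3 cpm in control fish, for a log2 fold change of 0.23 and overlapping groups. Log2 fold changes were 0.20 for egr3, 0.23 for egr2a, 0.073 for junbb and -0.041 for EGR4 (1 of 2), for which the value at 30 minutes was 0.87.

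Among 16 hormone and neuropeptide genes listed, 9 were tested (all tabled by the study), 2 were lower at p under 0.05 and 0 higher. These were gpha2, described above, and sst3, a somatostatin, which was at 612, 432, 460, 363 and 508 cpm in challenged and at 597, 618, 538, 740 and 634 cpm in control fish. Challenged fish 4 was the only challenged fish within the control range, and the log2 fold change was -0.40 (SE 0.15). oxt, the fish oxytocin gene, was at 0.290, 1.49, 1.85, 12.0 and 0.114 cpm in challenged and at 3.53, 0.633, 82.6, 16.3 and 7.88 cpm in control fish. avp, the vasotocin gene, was at 4.54, 2.77, 3.23, 7.21 and 1.31 cpm in challenged and at 6.45, 4.62, 69.4, 9.99 and 11.2 cpm in control fish. Both were highest in control fish 15, and their log2 fold changes of -2.71 and -2.37 had adjusted p of 0.883 and 0.848 by the edgeR test. Without fish 15 both were at -1.05. tac1, which encodes substance P, had a log2 fold change of 0.10.

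Of 8 genes of the steroid and glucocorticoid response (3 tabled by the study), 1 was higher and 1 lower at p under 0.05. nr3c2, the mineralocorticoid receptor, was at 68.9, 56.6, 57.6, 78.1 and 63.2 cpm in challenged and at 55.7, 53.1, 47.5, 38.7 and 31.3 cpm in control fish. All challenged fish were above all control fish, at a log2 fold change of 0.52 (SE 0.20, exact permutation p = 0.00794, adjusted p = 0.634 by the edgeR test), and 0.41 without fish 35. NR3C1, the glucocorticoid receptor gene, had 0.27, and tsc22d3, a target of that receptor, had -0.30, and neither passed p under 0.05. The lower member was nfkbiaa, given above.

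Epithelial genes, listed as markers of adhering skin or lining, were higher in 5 of 22 at p under 0.05 and lower in 0 (of 23 listed, 22 tabled by the study), at a median of 1.18. krt5, a keratin of basal epithelium, was at 333, 69.4, 22.2, 6.26 and 3.01 cpm in challenged and at 1.59, 12.3, 14.4, 9.14 and 52.1 cpm in control fish. The groups overlapped, and the log2 fold change of 2.27 had an adjusted p of 0.801 by the edgeR test and was 0.50 without challenged fish 4. The count of 5 was 3 without challenged fish 4 (median 0.58) or control fish 15, 2 without challenged fish 7 or control fish 8, and 1 without control fish 3 or 27. The list summed to 155 to 661 cpm in challenged and 230 to 395 cpm in control fish, with challenged fish 4 highest and challenged fish 28 lowest. krt18, the most abundant member, had a log2 fold change of -0.34.

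Of 11 oligodendrocyte genes (5 tabled by the study), 1 was lower at p under 0.05: aspa, the aspartoacylase of myelinating cells, with a log2 fold change of -0.45. mpz, a myelin protein, was highest in control fish 15 at 130 cpm, against 15.7 to 42.4 cpm elsewhere. Of the 21 genes listed for the telencephalon, 1 was higher at p under 0.05, gad2, an enzyme of GABA synthesis, with 0.21, and 0.14 without fish 35. The pallial factors eomesa and tbr1b had 0.23 and 0.16, and gad1b had 0.046. Of 14 diencephalon markers tested, 0 had a p under 0.05 in the quasi-likelihood test or the likelihood ratio test and 1 did in DESeq2, and their median was -0.54. With the library index 5 were lower, at a median of -1.67.

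**Figure D5:**
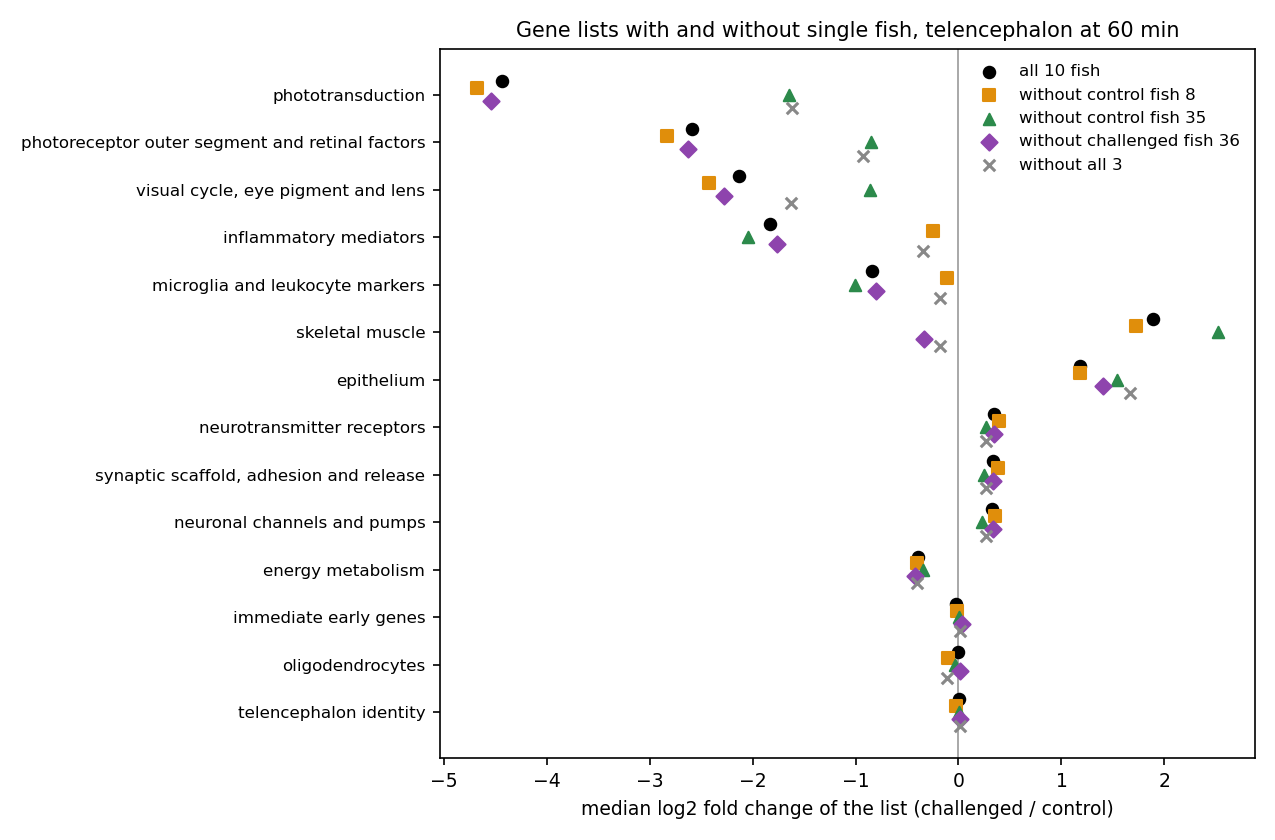
Median log2 fold change (challenged over control) of the gene lists with all 10 fish and with control fish 8, control fish 35, challenged fish 36 or all 3 left out. The phototransduction median was -4.43 with all fish and -1.65 without fish 35, and the synaptic median was 0.34 and 0.25.

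The response was compared with that at the other times, measured in other fish. In the telencephalon 4.14% of genes had a p under 0.05 at 30 minutes and 3.98% at 120 minutes, against 12.3% at 60 minutes. Without control fish 35 the share at 60 minutes was 7.23%, and without fish 8, 35 and 36 it was 7.04%. No fish of the other times was left out. The difference of the response between 60 and 30 minutes passed the adjusted threshold in 0 genes by the edgeR quasi-likelihood test (1724 or 10.0% at an unadjusted p under 0.05, smallest adjusted p 0.24). That between 60 and 120 minutes passed it in 0 genes (1849 or 10.7%, smallest adjusted p 0.358). The likelihood ratio test called 84 and 14 genes, and the quasi-likelihood test called 2 against 30 minutes without challenged fish 28 and 2 against 120 minutes without challenged fish 21. Median log2 fold changes at 30 and 120 minutes were -0.058 and -0.057 for synaptic genes, -0.034 and -0.023 for receptors and -0.0022 and 0.089 for energy metabolism. They were -0.048 and -2.21 for phototransduction and 0.0053 and 0.94 for inflammatory mediators. Immediate early genes had 0.26 and 0.079. The study tabled 26 of the 28 synaptic genes, 14 of the 21 receptors and 19 of the 32 metabolic genes for the comparison at 60 minutes. Medians of these lists nearer 0 at other times are thus no independent evidence of a response particular to 60 minutes.

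Between the regions, the response at 60 minutes was compared with libraries of the same fish, in a main test that had no term for the fish. In the diencephalon 1826 genes (10.5%) had a p under 0.05. The difference between the regions passed the adjusted threshold in 0 genes by the edgeR quasi-likelihood test, with 582 (3.32%) at an unadjusted p under 0.05. That number was 309 without challenged fish 28, 314 without control fish 35, 358 without challenged fish 4, 359 without control fish 3, and 402 to 728 with each of the others left out. With the fish as a replicate block that count was 1760, again with 0 genes past the adjusted threshold (smallest adjusted p 0.323). Median log2 fold changes in telencephalon and diencephalon were -4.43 and -4.43 for phototransduction, -1.83 and -1.50 for inflammatory mediators, 0.34 and 0.12 for synaptic genes, 0.35 and 0.23 for receptors, -0.39 and -0.22 for energy metabolism, and 1.89 and -0.12 for skeletal muscle. Of these lists muscle alone had medians of opposite sign. Among the other lists, so did hormones and neuropeptides (-0.40 and 0.16) and diencephalon markers (-0.54 and 0.18). Immediate early genes (-0.022 and 0.087) and oligodendrocyte genes (-0.0043 and 0.068) did too. Since both regions come from the same 10 fish, the values of a list in the 2 regions are not independent of each other.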

How the data were processed

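Per the labels and the study's methods, the authors trimmed the single-end reads, mapped them with TopHat2 (2.0.8) to a stickleback assembly with repeats masked (Ensembl release 75), tallied them with HTSeq (0.6.1) and deposited raw counts per gene, 17536 genes in 60 libraries. The authors' cpm table was not used. The tests ran in edgeR (4.0.16) under R (4.3.3), after TMM scaling and after removal of genes that did not reach 1 cpm in at least 2 telencephalon libraries. A model of time, with treatment nested in time, took in the 30 telencephalon libraries, and Benjamini-Hochberg adjustment of the quasi-likelihood tests covered 6 comparisons (3 times in 2 regions), at a threshold of 0.1. Standard errors are the absolute log2 fold change divided by the square root of F. Single genes were compared by exact permutation tests of log2 cpm (prior count 2). The alternatives were a likelihood ratio test, DESeq2 (1.42.0), robust dispersions, RLE scaling, other filters, the library index as a term, the 10 libraries alone, adjustment within the comparison, a threshold of 0.05 and the omission of each fish. Only the quasi-likelihood test at 60 minutes, adjusted within that comparison, was checked on simulated counts, in which 200 genes were changed. These counts were drawn gene by gene, without a fish that stands apart, and the other tests were not checked in this way. Figures were drawn with matplotlib (3.10.9).

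The 2 regions of a fish, numbered alike in the labels, deviated together from their group means (correlations over genes of 0.399 to 0.783 in the 10 fish). The main region comparison had no term for the fish, and the fish was a replicate block only in an alternative fit. Names of 1803 identifiers came from the study's supplementary tables, and 1681 of these were tested. The genes named were the 10 of smallest p in each direction, the 4 most abundant members of each list, the 6 of largest fold change with separate groups in each direction, and genes fixed by name, of which a selection is given and some are not reported here. Lists, fixed genes and the fish left out together were chosen with earlier results of these data known.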

Additional observations from a re-analysis of the deposited data

Results flagged for a closer look

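In each group of 5 fish the highest and the lowest fish were compared with the nearest other fish, and a value counted as far from the rest where that gap exceeded 0.71 of the whole range of the group (Dixon's critical value). For normally distributed values chance alone gives this in about 1 of 20 groups, and here 48 of 212 groups (22.6%) passed. These values were cpm without a log scale, of lists and genes chosen with earlier results of these data known. The 1 of 20 is therefore no measure of what chance gives here. Many of these groups share the same extreme fish. No cause was tested.

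Control fish 35 was high in 19 groups: the sum of phototransduction (1808 cpm), the sum of photoreceptor outer segment and retinal factors (500 cpm), gnat1 (195 cpm), gnat2 (101 cpm), pde6a (33.8 cpm), arr3a (105 cpm), grk1a (1 of 2) (39.4 cpm), gngt1 (109 cpm), rom1a (46.3 cpm), rom1b (63 cpm), crx (12.7 cpm), cabp5a (53.4 cpm), clul1 (73.6 cpm), abca4b (35.6 cpm), rbp4l (183 cpm), pde6h (1 of 2) (175 cpm), atp2a1 (13.2 cpm), tpm2 (11.4 cpm) and krt5 (52.1 cpm). Control fish 8 was high in 14: the sum of inflammatory mediators (1922 cpm), the sum of microglia and leukocyte markers (2734 cpm), cybb (148 cpm), il1b (51.5 cpm), irg1 (435 cpm), cebpb (50.5 cpm), irf8 (167 cpm), C4B (239 cpm), cd40 (125 cpm), nfkbiaa (83.6 cpm), csf1rb (218 cpm), itgb2 (235 cpm), CTSS (2 of 2) (229 cpm) and eomesa (295 cpm).

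Challenged fish 36 was high in 6: the sum of skeletal muscle (1088 cpm), ckma (112 cpm), ckmb (181 cpm), atp2a1 (195 cpm), atp2a1l (267 cpm) and tpm2 (85.3 cpm). Control fish 15 was high in 3: oxt (82.6 cpm), avp (69.4 cpm) and mpz (130 cpm). Control fish 3 was high for the sum of pituitary (5.55 cpm), challenged fish 28 for oxt (12 cpm) and challenged fish 7 for arr3a (4.64 cpm). Challenged fish 4 was high for krt5 (333 cpm) and low for cnga3a (4.87 cpm) and egr1 (81 cpm).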

How the results depend on the processing

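The edgeR quasi-likelihood test called 0 genes at 60 minutes under every alternative of scaling, filter, adjustment and samples that was run. The likelihood ratio test called 15 and DESeq2, with p adjusted within this comparison alone, called 232. With fish 8, 35 and 36 left out together, a choice made after seeing the data, these were 2 and 4. Genes higher at an unadjusted p under 0.05 (1227) numbered 771 in the 10 libraries alone, 645 to 1735 with single fish left out, 735 without fish 8 and 35, and 597 without fish 8, 35 and 36 (708 by DESeq2, 502 by the likelihood ratio test). Genes lower (900) numbered 592 by the likelihood ratio test without the 3 fish. Of the genes at p under 0.05, 57.7% were higher in challenged fish, against 47.9% in the 10 libraries alone and 49.4% without the 3 fish. The differences of the response from 30 and 120 minutes had 84 and 14 calls by the likelihood ratio test. By the quasi-likelihood test they had 0 to 2 each with single fish left out, 2 against 30 minutes without challenged fish 28 and 2 against 120 minutes without challenged fish 21. The replicate block moved the region difference from 582 to 1760 genes at p under 0.05 and left 0 calls.

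Among the genes described, log2 fold changes that changed sign, as ranges with single fish left out, were those of irg1 (-6.01 to 0.13), CTSS (2 of 2) (-0.9996 to 0.072), irf8 (-1.82 to 0.0025), ckma (-0.24 to 5.28), ckmb (-0.74 to 4.97), atp2a1 (-0.58 to 3.43), atp2a1l (-0.58 to 5.31), tpm2 (-0.54 to 2.05), mpz (-0.82 to 0.22) and EGR4 (1 of 2) (-0.13 to 0.042). Without fish 8, 35 and 36 they were 0.19 for irg1, 0.057 for CTSS (2 of 2), -0.0011 for ckma, -0.47 for ckmb, -0.14 for atp2a1, -0.53 for atp2a1l, -0.30 for tpm2 and 0.020 for EGR4 (1 of 2). Without fish 8 and 35 they were 0.16 for irg1, 0.058 for CTSS (2 of 2), -0.022 for gad1b and -0.061 for fosb, and with the library index tpm2 had -0.040. With single fish left out, the sign turned for irg1, CTSS (2 of 2) and irf8 without fish 8 and for the muscle genes without fish 36. The upper end of the range came without fish 15 for mpz and without fish 35 for EGR4 (1 of 2). No cause was tested for these, for the others, or for tpm2 with the library index.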
